A study of Oryza sativa Japonica Group with 18 samples.

Results

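A set of 198 probe sets, 0.346% of the 57258 that are not controls on the Affymetrix rice array, read lower in the shoots of both rice mutants studied than in wild-type shoots. They were selected on measured shoot values. The group mean of log2(signal + 16) had to be at least 1 unit (2-fold on this scale) lower in the gi knockout and in the pho2 knockout, each of the 6 mutant shoot arrays had to lie below all 3 wild-type shoot arrays, and the mean wild-type shoot signal had to reach 100. The shoot differences are therefore given as a description, without a test. The study compared roots and shoots of wild-type (WT) plants of cultivar Nipponbare with those of OsGIGANTEA and OsPHO2 knockouts (KO, here gi and pho2) in the same Nipponbare background. There were 3 arrays in each of 6 groups, 18 in all. Plants were 21 days old, germinated for 2 days in tap water and then grown for 19 days in hydroponic culture with sufficient phosphate (Pi), at 30 °C by day and 22 °C by night under a 12 h photoperiod. The sources used here give neither the mutation carried by each line, nor the hour of harvest, nor the number of plants behind an array, so each knockout is taken as 1 line. The labels number the arrays of a group without saying whether they came from separate plants. The p-values below therefore cover the spread among these arrays alone, and that spread may be technical.

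GIGANTEA (GI) is a plant protein of the circadian clock that carries day-length information to the flowering pathway. PHO2 is a ubiquitin-conjugating enzyme that limits Pi uptake and its transfer to the shoot by marking Pi transport proteins for breakdown, and plants without it accumulate Pi in leaves. The title of the series links the 2 proteins by a molecular interaction, which makes the transcripts that are lower in the shoots of both mutants a shared feature to describe.

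Signals were on the linear MAS5 scale, on which every array is brought to a common average, and trimmed means ran from 496.9 to 497.7. GI itself read 9868 to 11521 in WT shoots and 7007 to 7393 in WT roots, at most 44.6 on any gi array, and 6835 to 8200 on the pho2 arrays. PHO2 has no named probe set in the tables used here and was not checked. The tissue labels held: the small subunit of Rubisco (OsrbcS) averaged 30590 in WT shoots and 69.4 in WT roots, and the silicon efflux transporter Lsi2 averaged 8449 in WT roots and 2.24 in WT shoots. Replicate arrays correlated at 0.982 to 0.986 in root and at 0.954 to 0.971 in shoot over all probe sets. Some technical readings moved with genotype. Hybridization controls averaged 12.17 (log2) in WT, 12.03 in gi and 11.71 in pho2 shoots, and poly-A controls averaged 9.85, 9.41 and 9.28. The log2 ratio of the 3' to the 5' GAPDH control probe sets was 2.62, 2.66 and 1.90 in shoots in the same order. In roots this ratio averaged 1.695 in WT, 1.876 in gi and 2.24 in pho2. Root poly-A controls averaged 9.21, 9.34 and 9.32, and root hybridization controls 10.22, 10.21 and 10.16. The part of these readings in the shoot and root differences was not tested. When the arrays were levelled on the hybridization or the poly-A controls, a choice made after seeing the data, the rule kept 97 or 66 of the 198 members.

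WT root replicate 2 stood apart. It read at least 2-fold lower than both other WT root arrays, on the log2(signal + 16) scale, at 17 members, against 0 members for WT root replicate 1 and 3 for replicate 3. In 14 of the 17 the mutant root arrays all lay below the other WT arrays, and replicate 2 was nearer to the mutants than to its own group. Over all 24802 probe sets with a mean root signal of at least 100, it lay 4-fold or more below both other WT root arrays at 31 and above both at 34, where replicates 1 and 3 gave at most 4 in either direction. Of the 31, 6 were members. The count of 17 above is at 2-fold and has no signal minimum. GI on this array read 7007, at the level of its group. The reason was not tested, and root results that rest on it are given with and without it. Among the shoots, gi replicate 3 read at least 2-fold above both other gi arrays at 10 members, and gi replicate 1 read 2-fold below them at 11. The rule gave 232 probe sets without gi shoot replicate 3, including 192 of the 198, and 193 without gi shoot replicate 1, including 171.

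Of the members, 110 map to 1 gene (97 genes in all), 2 to several genes and 86 to none in the tables used. Only 11 genes, reached by 14 members, carry a name other than a locus number. The others are given by locus number or probe set, with no role. Probe sets whose ID ends in _s_at, which read transcripts of more than 1 gene, made up 12.12% of the members and 4.94% of all probe sets. For these, and for the 10.61% that end in _x_at and can cross-hybridize, signal from similar copies cannot be told apart. In whole shoots, fewer cells of a type and less RNA per cell cannot be told apart either.

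In shoots the members spanned a wide range of levels. The median of their mean signals was 880 in WT shoots, 287 in gi shoots and 241 in pho2 shoots, while the brightest member reached 27718 in WT. The median difference from WT was -1.48 on the log2(signal + 16) scale in gi (range -7.13 to -1.01) and -1.57 in pho2 (range -6.50 to -1.003), beside medians of 0.00 and -0.01 over all probe sets. At least 4-fold lower in both mutants were 32 members, at least 8-fold lower (log2 of -3) were 13, and 6 lay at log2 -4 or below in both. Of 22422 probe sets with a WT shoot mean of at least 100, 432 met the other conditions in gi and 728 in pho2. The 2 shoot comparisons share the WT arrays, so the joint count is a description of the rule.

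**Figure D1:**
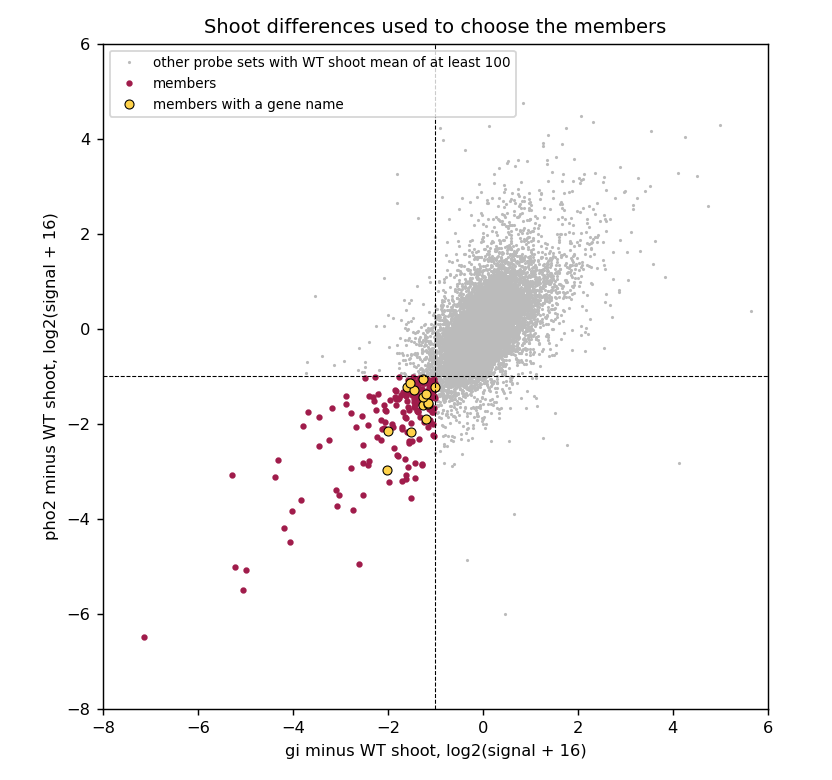
Difference from WT shoot in gi (horizontal axis) and pho2 (vertical axis), in log2(signal + 16), for the 198 members (red, with the 14 named ones in yellow) and the other probe sets with a WT shoot mean of at least 100 (grey). Dashed lines mark the limit of -1, and most members lie between -1 and -2, with 32 at or below -2 on both axes.

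Members near the limit differed little from probe sets just outside it. OsAffx.15014.1.S1_s_at was just inside with differences of -1.46 in gi and -1.0025 in pho2, followed by Os.27098.2.A1_at with -1.01 and -1.46 and Os.51637.1.S1_x_at with -1.76 and -1.01. Just outside were Os.41695.3.S1_x_at with -1.63 in gi and a pho2 difference that missed the limit only past the fifth decimal, LOC4336618 with -0.998 and -1.47 and LOC4326803 with -1.33 and -0.998.

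**Figure D2:**
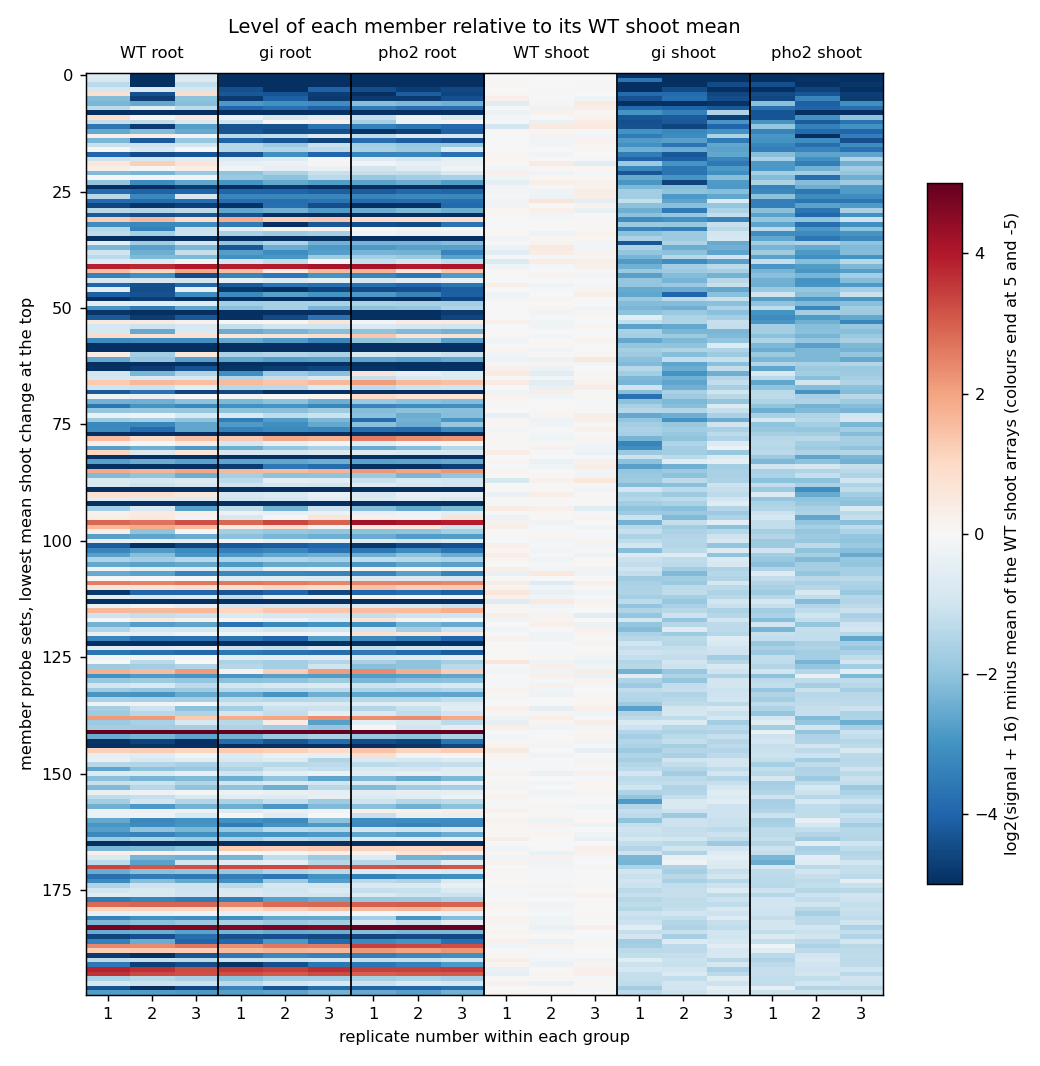
Level of each of the 198 members (rows, lowest mean shoot difference at the top) on each of the 18 arrays (columns), in log2(signal + 16) minus the mean of the 3 WT shoot arrays. Both mutant shoot groups are blue by construction, roots vary from far below to far above WT shoots, and WT root replicate 2 turns blue in several of the top rows.

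Among the named members, 2 belong to the cytokinin system. CKX11, a cytokinin oxidase/dehydrogenase that breaks this hormone down, read 2607, 2285 and 2798 in WT shoots, 837, 729 and 947 in gi shoots and 1183, 1087 and 978 in pho2 shoots. Its shoot differences were -1.60 and -1.23, and the gi arrays all lay below the pho2 arrays. A dim second probe set of CKX11, with a WT shoot mean of 75.3, differed by -0.19 in gi and -0.97 in pho2 and is no member. In roots CKX11 went the other way in pho2: it read 1971, 1941 and 2170 in WT, 2184, 2250 and 2310 in gi and 4294, 3733 and 3457 in pho2. The pho2 root difference was 0.91 (standard error, SE, 0.08, limma adjusted p = 0.000242), while that in gi was 0.15 (SE 0.08, adjusted p = 0.429), and pho2 root exceeded gi root by 0.76 (SE 0.08, adjusted p = 0.00118). Hpt5 is a histidine phosphotransfer protein, of the family that passes the cytokinin signal from receptor to nucleus, and is also listed as the pseudo form PHP5. Its signals were 816, 767 and 962 in WT shoots, 338, 302 and 451 in gi shoots and 230, 217 and 199 in pho2 shoots. Each pho2 shoot array was below each gi shoot array. In roots it averaged 599 ± 26.6 (SD, n = 3) in WT, 676 ± 89.2 in gi and 486 ± 42.8 in pho2. The difference between pho2 and gi roots of -0.46 (SE 0.11) had an adjusted p of 0.0341, and the call was lost in 7 of 12 other settings, with adjusted p up to 0.116.

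AOS2, listed under the shared symbol AOS, is an allene oxide synthase, an enzyme that makes the precursor of jasmonate, a wound and defence hormone. Its probe set was dim in every group. WT shoots gave 132, 179 and 158, gi shoots 75.7, 28.4 and 73.7, and pho2 shoots 22.9, 57.7 and 45.3, with differences of -1.26 and -1.61. The mutant arrays overlapped each other, and the log2 scale understates such a change at low signal. Root signals of AOS2 ranged from 100 to 268 over the 3 genotypes, and neither root difference was called (-0.47, adjusted p = 0.339 in gi, 0.08, adjusted p = 0.855 in pho2). The gene AOS1, which bears the same symbol and is no member, was brighter in shoots, with means of 426 in WT, 461 in gi and 347 in pho2 and differences of 0.11 and -0.28.

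The transcription regulators were GATA20, MYBAS1 and LOL4. GATA20, a GATA-type zinc finger protein that the tables also list as TIFY2B, read 1592, 1456 and 1663 in WT shoots, 444, 636 and 630 in gi shoots and 644, 647 and 615 in pho2 shoots. It was the only one of the 11 named genes that was also called lower in both mutant roots. Its WT roots gave 1311, 1352 and 1509, its gi roots 885, 973 and 937 and its pho2 roots 1021, 1074 and 958. The root differences were -0.57 (SE 0.08, adjusted p = 0.00692) and -0.44 (SE 0.08, adjusted p = 0.00661), and both were called in all 15 other settings. MYBAS1, a MYB transcription factor, read 1067, 842 and 1003 in WT shoots, 395, 386 and 396 in gi shoots and 492, 480 and 410 in pho2 shoots. Its root level was far higher, from 5333 to 7938 over the 9 arrays, and neither root difference was called (-0.16, adjusted p = 0.457 and 0.11, adjusted p = 0.518). LOL4, an LSD1-like zinc finger protein of a family tied to cell death control in Arabidopsis, read 3178, 2286 and 2328 in WT shoots, 1236, 977 and 991 in gi shoots and 754, 1335 and 815 in pho2 shoots. In roots LOL4 gave 795, 767 and 793 in WT, 860, 754 and 658 in gi and 2476, 1353 and 1714 in pho2. The pho2 root arrays stood clear of the other 6, and the difference from WT was 1.17 (SE 0.18, adjusted p = 0.00312).

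Transport was represented by NRAMP4 and CAX1b. NRAMP4, a member of the natural resistance-associated macrophage protein family of metal transporters, was reached by 3 members. The brightest, Os.27467.1.S1_at, read 4712, 3695 and 4226 in WT shoots, 1718, 1902 and 1972 in gi shoots and 1077, 1950 and 1273 in pho2 shoots. The other members gave differences of -1.15 and -1.02 in gi and -1.56 and -1.22 in pho2. Another pair of NRAMP4 probe sets fell short of the limits, with -0.91 and -0.39 in gi and -1.21 and -0.63 in pho2, although their mutant arrays also lay below all WT arrays. In roots the brightest NRAMP4 member moved the other way by less: WT gave 1217, 1088 and 1185, gi 1562, 1603 and 1667 and pho2 1380, 1355 and 1490. The differences were 0.47 (SE 0.07, adjusted p = 0.0101) and 0.27 (SE 0.07, adjusted p = 0.0304). The pho2 call was lost in 8 of 15 other settings and the gi call in 2, with adjusted p up to 0.297 and 0.142. CAX1b, a vacuolar cation/proton exchanger of the family that moves calcium, read 405, 321 and 415 in WT shoots, 120, 126 and 242 in gi shoots and 128, 170 and 116 in pho2 shoots. Its root signals, 252 to 348, were not called in either mutant.

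BURP2, GLP2 and KIN14K complete the named genes. BURP2, a plant-specific BURP domain protein, was the brightest named member in WT shoots. Its probe set Os.28427.1.S2_a_at gave 28276, 24385 and 30370 in WT shoots, 6697, 7590 and 6544 in gi shoots and 3432, 8409 and 8131 in pho2 shoots, and the second probe set gave differences of -2.02 and -2.97. BURP2 was far dimmer in WT roots (644 to 939), where pho2 replicate 1 read 72.1 beside 719 and 997, and no root difference was called. GLP2, a germin-like protein of the cell wall, was a low shoot transcript and one of the highest root transcripts among the members. It gave 178, 172 and 199 in WT shoots, 55.0, 51.2 and 51.4 in gi shoots and 139, 33.97 and 78.1 in pho2 shoots, against 8057 to 11319 in roots. A dim second probe set of GLP2, with a WT shoot mean of 82.9, differed by -0.46 in gi and -0.60 in pho2 shoots and is no member. GLP2 in roots differed from WT by 0.27 (adjusted p = 0.165) in gi and 0.28 (adjusted p = 0.0617) in pho2. KIN14K, a kinesin motor protein of the kinesin-14 family, read 1309, 1423 and 1446 in WT shoots, 436, 305 and 826 in gi shoots and 329, 259 and 299 in pho2 shoots. Its other probe sets fell short of the limit in gi, with -0.81 and -0.83, and differed by -2.47 and -1.27 in pho2. KIN14K stayed between 99.4 and 165 in every root array, with no call.

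**Figure D3:**
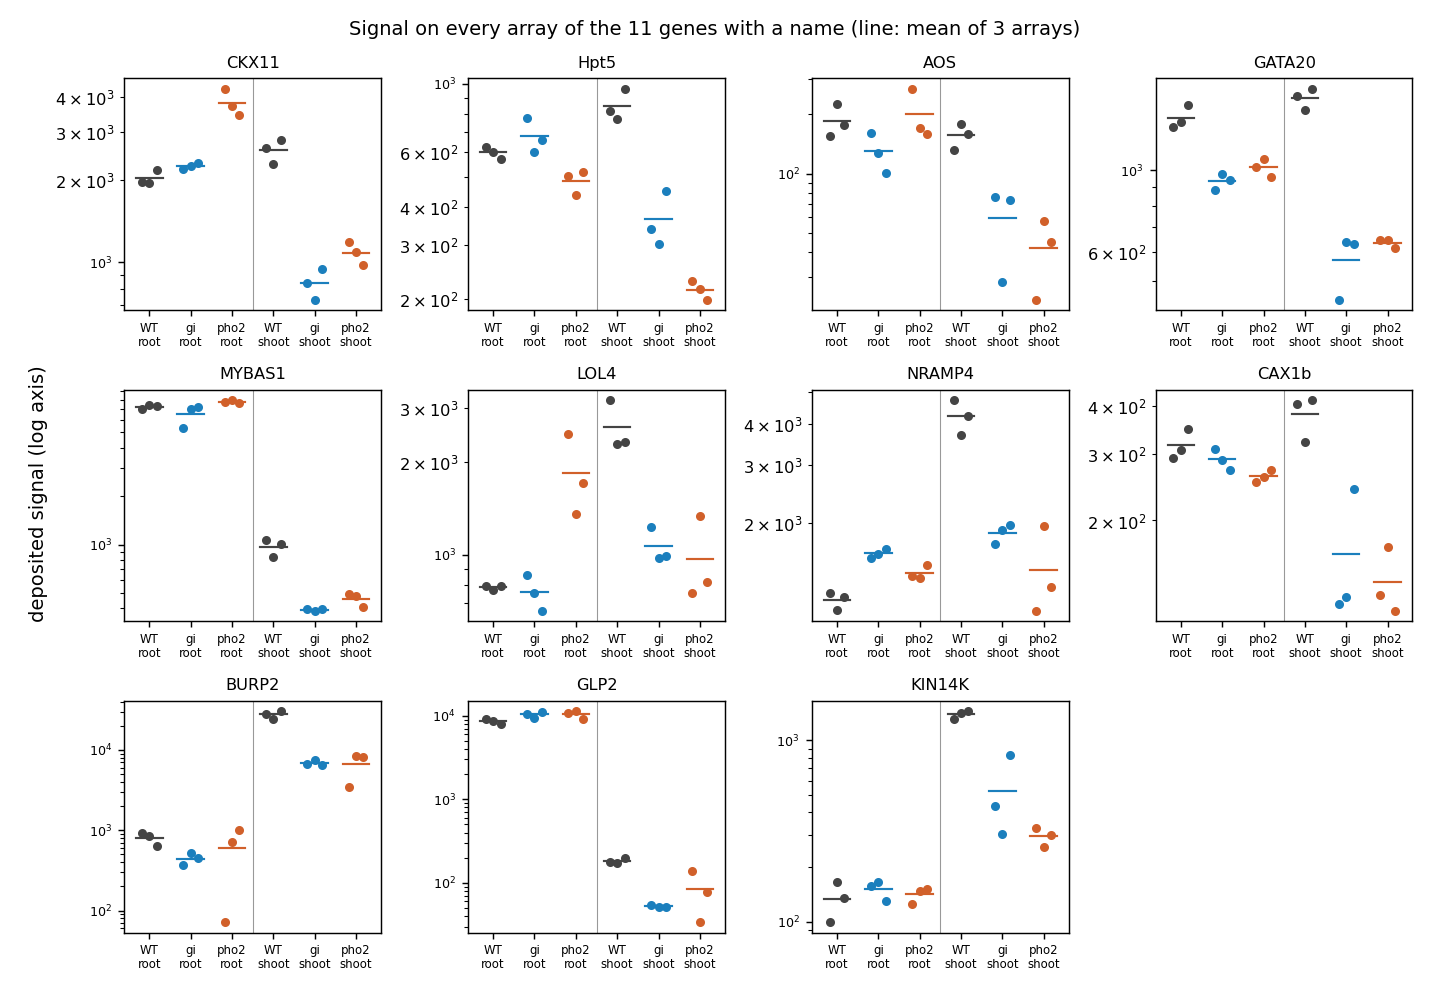
Deposited signal (log axis) on every array for the brightest member of each of the 11 named genes, with a line at the mean of 3 arrays. WT shoots lie above both mutant shoot groups in every panel, whereas pho2 roots lie above WT roots for CKX11 and LOL4 and both mutant roots lie below WT roots for GATA20.

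Other genes with the same name stem, looked up after the members' values were seen, did not fall under the limit in both mutants in any of these families. The 2 other CKX genes with a WT shoot mean of at least 100 differed by 0.25 to 1.45 in gi and by -0.25 to 1.14 in pho2. The 3 other NRAMP genes differed by -0.54 to 0.45 and by -0.13 to 1.03. The 4 other LOL genes ranged from -0.35 to 0.24 and from -0.65 to 0.51. The histidine phosphotransfer genes AHP1 and AHP2 ranged from -0.14 to 0.19 and from -0.375 to 0.15. HPT1 and HPT2, also listed as VTE2-1 and VTE2-2, share only the name stem and are not relatives of Hpt5. Some came close to the limit. CAX1a differed by -1.18 in gi and -0.92 in pho2, and the MYB gene myb17, also listed as MYBAS2, by -1.15 and -0.94. BURP17 differed by -1.20 in gi and -0.25 in pho2, and the germin-like gene GER6 by -1.15 and 0.03. The 2 other GATA genes lay between -0.23 and 0.07 in both mutants, and the 4 other KIN14 genes between -0.61 and 0.31.

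The wider gene lists, compiled from gene names, held few members. Over all probe sets with a WT shoot mean of at least 100, 2.14% were at least 2-fold lower in gi, 3.39% in pho2 and 0.94% in both. Of 85 hormone genes with that minimum, 2 were lower by as much in gi (2.35%), 4 in pho2 (4.71%) and 1, CKX11, in both. Of 38 jasmonate and defence genes, 3 (7.89%) and 4 (10.53%) were, and 2 in both (AOS2 and GATA20, the second through its TIFY name). Of 34 metal transport genes, 4 (11.76%) and 7 (20.59%) were, and the list held 1 member gene, NRAMP4. Of 110 transcription factor genes, 2 (1.82%) and 4 (3.64%) were, with MYBAS1 in both. The lists for Pi (15 genes with the minimum), nitrogen (15), potassium (21), photosynthesis (15), starch and sucrose (33), the clock (6), flowering (34), the cell wall (40), ribosomal proteins (27) and dividing cells (49) held 0 members. The clock list had 2 genes at least 2-fold lower in gi and 0 in pho2. The genes of that list are not named here, and GI, if counted, is lower in gi by genotype.

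The 5 lowest members read near the bottom of the scale in mutant shoots. Os.46902.1.S1_at, a probe set of LOC4352868 on chromosome 12, read 9704, 8943 and 9968 in WT shoots, 11.2, 117 and 71.6 in gi shoots and 82.2, 82.5 and 106 in pho2 shoots. Its differences of -7.13 and -6.50 were the largest in gi and in pho2. Other probe sets of LOC4352868 did not follow to that extent. Os.46902.1.S1_x_at averaged 18400 in WT, 4506 in gi and 4747 in pho2 shoots, and Os.28425.1.S1_x_at, which is no member, averaged 46329, 35139 and 28327, with its arrays overlapping between the groups. The pair OsAffx.31233.1.S1_at and OsAffx.31233.2.S1_s_at, which share a cluster number, read 1178 to 1363 on WT shoot arrays and at most 86.9 on mutant shoot arrays. Os.4808.1.S1_at gave 828, 808 and 876 in WT shoots, 5.70, 22.1 and 7.11 in gi shoots and 7.32, 18.3 and 3.74 in pho2 shoots. Os.38995.1.S1_at gave 668, 619 and 655, then 30.6, 30.3 and 12.5, then 14.2, 18.2 and 9.44. The OsAffx.31233 pair, Os.4808.1 and Os.38995.1 have no gene in the tables used.

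Those with the most signal in WT shoots were LOC9268371, BURP2, OsAffx.11838.1.S1_x_at, LOC4324873 and LOC9270637. LOC9268371 read 29645, 24573 and 28937 in WT shoots, 8446, 7517 and 13955 in gi shoots and 6863, 8579 and 5678 in pho2 shoots. OsAffx.11838.1.S1_x_at read 23492, 19813 and 22359 in WT, 5289, 5790 and 9599 in gi and 3431, 1413 and 2667 in pho2 shoots. LOC4324873 was lower again in pho2 shoots (3368, 1668 and 2208) than in gi shoots (6938, 5824 and 11082), from 18376, 21761 and 21864 in WT. LOC9270637 gave 21186, 18191 and 21181 in WT, 4196, 3755 and 7288 in gi and 7996, 4586 and 6160 in pho2 shoots, where the mutants overlapped. In gi replicate 3 the values of LOC9268371, OsAffx.11838.1.S1_x_at, LOC4324873 and LOC9270637 were the highest of the gi arrays.

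The rule set both mutants at least 1 log2 unit below the same WT shoot arrays, so likeness between the mutants is partly built in. The shoot group means of the 2 mutants lay within 0.5 log2 units of each other at 133 members. This was not counted over all probe sets. The arrays of the 2 mutants overlapped at 142 members. All pho2 arrays lay below all gi arrays at 34 members (17.2%) and the reverse held at 22 (11.1%), beside 21.2% and 20.8% of all probe sets with a WT shoot mean of at least 100. The means were more than 1 log2 unit apart at 27 members, 12 lower in gi and 15 lower in pho2. The next 2 were chosen after their values were seen, as the widest gap in each direction. LOC4336657 read 10116, 16838 and 21159 in WT shoots, 422, 264 and 492 in gi shoots and 3615, 883 and 1807 in pho2 shoots, so that gi was lower by 2.19. LOC4352346 read 5933, 8460 and 7932 in WT shoots, 941, 692 and 2544 in gi shoots and 352, 162 and 191 in pho2 shoots, so that pho2 was lower by a log2 difference of -2.33.

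Most members, but not all, were brighter in WT shoots than in WT roots. On WT arrays 148 members were higher on every shoot array than on any root array, 27 were higher on every root array and 23 overlapped. These array counts were not made over all probe sets. The WT shoot minimum of the rule also favours probe sets that are bright in shoots. At least 2-fold higher in WT shoots than in WT roots were 62.12% of the members and 26.99% of the probe sets with a WT shoot mean of at least 100. This comparison uses the WT shoot arrays of the rule and carries no test. LOC4344999 (14951, 15884 and 16526), LOC9270637 (11238, 11831 and 11651) and GLP2 (9213, 8555 and 8057) had the highest WT root signals. The lowest were Os.26801.1.A1_at, a probe set of LOC4352651, with OsAffx.26389.1.S1_at and Os.46359.1.A1_at, which gave at most 4.59 in any WT root array. Os.26801.1.A1_at gave 0.623, 0.641 and 4.85 in WT roots against 1148, 1283 and 1216 in WT shoots. Other probe sets of LOC4352651 did not follow in shoots. Os.18505.1.S1_at averaged 3058 in WT shoots and differed by 0.06 in gi and -0.08 in pho2. The dimmer Os.21767.1.S1_at differed by -0.21 and -0.20. In 70 members the mean WT root signal was under 100.

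Root samples were not used by the rule, so the members were tested there with limma over the 34355 probe sets brighter than the 40th percentile of mean root signal. Of the 198 members, 163 passed that filter, and the other 35 had mean root signals of at most 30.5 and have no root test. A member is called when its adjusted p over all probe sets tested is under 0.05. In gi roots 14 of the 163 were called lower (8.59%) and 5 higher (3.07%), where 1.12% and 1.19% of all probe sets tested were called lower and higher. In pho2 roots 24 were called lower (14.72%) and 33 higher (20.25%), beside 7.88% and 7.99% of all tested. Between the mutants 2 were lower (Hpt5 and LOC4324194) and 19 higher in pho2 roots than in gi roots, beside 3.66% and 3.94% of all tested. Median differences of the members were -0.04, 0.04 and 0.10 in the 3 comparisons, beside 0.03, 0.02 and -0.03 over all tested. Most members therefore had no called difference in root: 105 of the 163 (64.4%) were called in neither mutant, beside 83.4% of all tested. The gi root and pho2 root comparisons share the WT root arrays, so joint calls are a description. Called lower in both were 13 members (7.98%, beside 0.774% of all tested) and higher in both 5 (3.07%, beside 0.745%). Called in pho2 alone were 28 higher (17.2%, beside 7.22%) and 11 lower (6.75%, beside 7.1%). Only LOC4336657 was called lower in gi alone (0.613%, beside 0.32%). All these counts are of probe sets, and members that share a gene or a cluster number were counted separately. The 13 lower in both include 3 members of LOC4341393 and members that share the cluster numbers Os.35216 and OsAffx.15787. The 28 higher in pho2 alone include members that share LOC4344909 or LOC4324330. The counts are therefore not of independent genes.

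Without WT root replicate 2, gi roots gave 26 members lower and 6 higher of 161 tested, beside 0.66% and 1% of all probe sets tested. In pho2 roots they gave 30 lower and 26 higher, beside 4.84% and 5.34% of all tested, and the members called lower in both went from 13 to 24 (14.9%, beside 0.448% of all tested). Leaving out WT root replicate 1 gave 12 members in gi roots in place of 19, while calls over all 34355 probe sets tested went from 794 to 311. The summed signal of 12 shoot marker genes was 10433 to 11184 in WT roots, 14691 to 22660 in gi roots and 10307 to 18554 in pho2 roots. Most of the WT root sum came from CAB2R (mean 6607) and PYL11 (2759). PYL11 averaged 4287 in WT shoots, so it separated the tissues poorly. The part of this sum in the root differences was not tested.

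**Figure D4:**
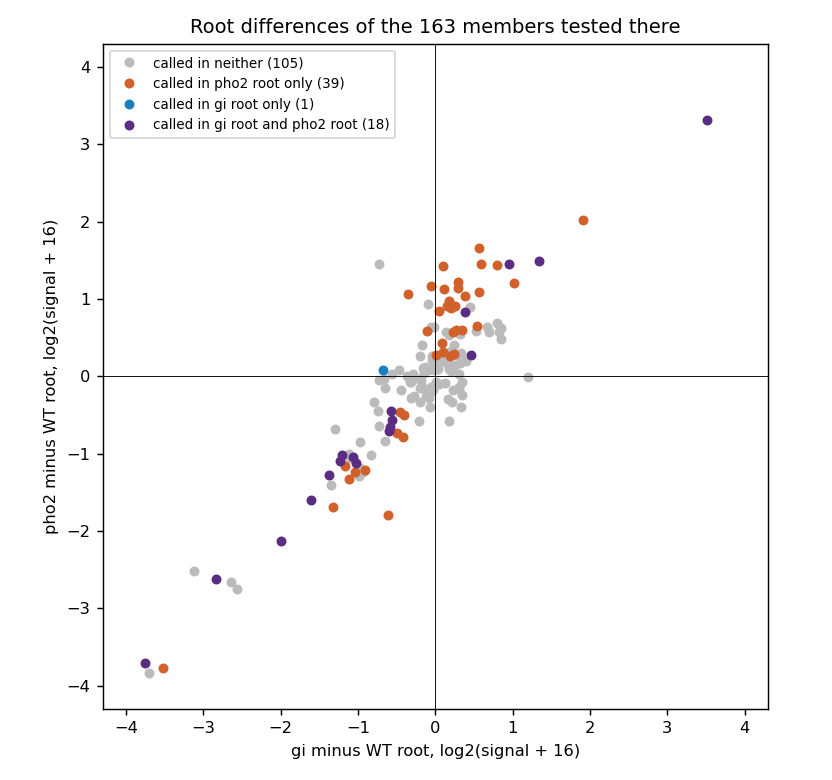
Difference from WT root in gi (horizontal axis) and pho2 (vertical axis), in log2(signal + 16), for the 163 members tested in root, coloured by the limma call. The 18 members called in both mutants lie toward the lower left and upper right, 39 were called in pho2 alone and 105 in neither.

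Root calls were also counted by the size of the shoot difference. Of the 32 members at least 4-fold lower in both mutant shoots, 24 were tested in root. There 9 were called lower in gi (37.5%) and 13 in pho2 (54.17%), and 0 and 2 (8.33%) higher. Of the other 166 members, 139 were tested, where 5 were called lower in gi and 11 in pho2, and 5 and 31 higher. The calls of these 139 in pho2 roots were thus mostly higher (22.3%, against 7.91% lower). Over all probe sets tested, 7.88% were called lower and 7.99% higher in pho2 roots, so the lower share of these 139 was near that of all tested. In gi roots 3.6% of the 139 were called in each direction, beside 1.12% lower and 1.19% higher of all tested. Without WT root replicate 2 the lower counts were 14 and 16 of 24, and 12 and 14 of 137, and the higher counts were 1 and 2, and 5 and 24. Of all probe sets tested, 0.66% were then called lower and 1% higher in gi roots, and 4.84% and 5.34% in pho2 roots. The split by depth was made after the values were seen, and the contrast between the 2 parts was not tested.

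Members called lower in both roots included Os.4808.1.S1_at, one of the 5 lowest in shoots. It gave 448, 494 and 452 in WT roots, 24.8, 5.37 and 35.1 in gi roots and 23.8, 16.8 and 21.6 in pho2 roots. The differences were -3.76 (SE 0.29, adjusted p = 0.000101) and -3.71 (SE 0.29, adjusted p = 8.19e-05), and WT root replicate 2 read like its group here. Os.20602.2.S1_x_at read 1697, 1536 and 2281 in WT shoots and at most 121 on mutant shoot arrays, and 725, 1182 and 713 in WT roots against 95.6 to 146 on mutant root arrays. Its root differences were -2.83 (SE 0.20, adjusted p = 5.02e-05) and -2.62 (SE 0.20, adjusted p = 7.3e-05). LOC4329640 gave 519, 518 and 491 in WT roots, 142, 126 and 212 in gi roots and 141, 160 and 173 in pho2 roots, a difference of -1.61 and -1.60 (adjusted p = 0.00109 and 0.000507). LOC4329900 had closely spaced replicates. It read 4716, 4442 and 4412 in WT shoots, 1006, 993 and 1060 in gi shoots and 1100, 977 and 1039 in pho2 shoots, then 3141, 2960 and 2896 in WT roots, 1368, 1426 and 1461 in gi roots and 1496, 1449 and 1379 in pho2 roots. The mutants were alike in both tissues, with root differences of -1.07 (SE 0.06, adjusted p = 1.78e-05) and -1.05 (SE 0.06, adjusted p = 2.22e-05). LOC4341393 was called lower in both roots by each of its 3 probe sets, with differences between -0.71 and -0.57. Its brightest probe set read 2561, 2565 and 2429 in WT roots, 1641, 1689 and 1619 in gi roots and 1556, 1612 and 1446 in pho2 roots.

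**Figure D5:**
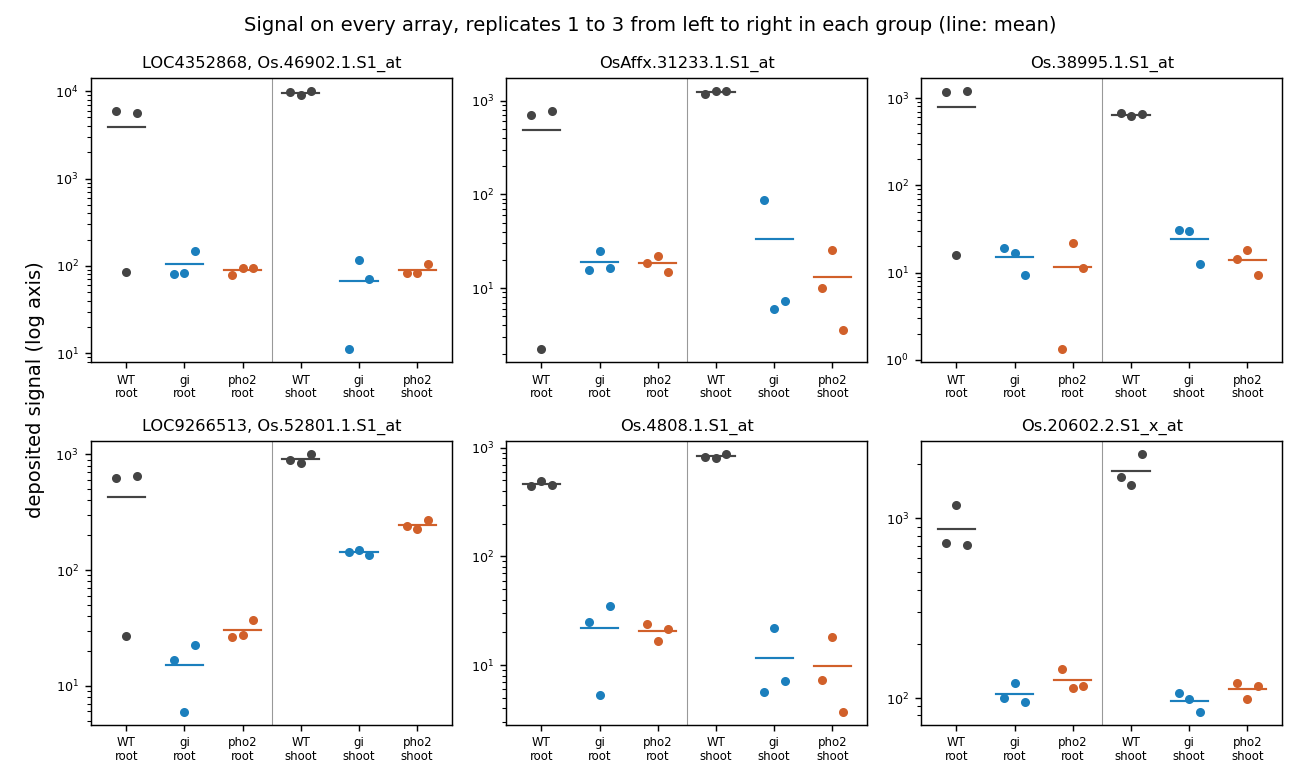
Deposited signal (log axis) on every array for 6 members, with replicates 1 to 3 from left to right in each group and a line at the mean. WT root replicate 2 lies at the mutant level for the first 4 (85.1 beside 5942 and 5696 for LOC4352868) and with the other WT root arrays for Os.4808.1.S1_at and Os.20602.2.S1_x_at.

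For the other 4 lowest members the root comparison rested on WT root replicate 2. The LOC4352868 probe set Os.46902.1.S1_at read 5942, 85.1 and 5696 in WT roots, 81.1, 82.6 and 148 in gi roots and 79.0, 95.6 and 94.0 in pho2 roots. Its differences were -3.70 (SE 1.24, adjusted p = 0.175) and -3.84 (SE 1.24, adjusted p = 0.0615) with all arrays, and -5.65 (adjusted p = 1.56e-06) and -5.79 (adjusted p = 1.56e-06) without replicate 2. OsAffx.31233.1.S1_at gave 701, 2.24 and 769 in WT roots and 14.7 to 24.8 on the 6 mutant root arrays, and OsAffx.31233.2.S1_s_at gave 495, 2.19 and 547 against 2.24 to 21.5. For the first, the gi difference went from -2.65 (adjusted p = 0.287) to -4.44 (adjusted p = 6.86e-06) without replicate 2. Os.38995.1.S1_at gave 1170, 15.8 and 1193 in WT roots against 1.34 to 22.0 in the mutants. In pho2 roots it was called at -3.77 (SE 1.13, adjusted p = 0.0478), and the call was lost in 11 of 15 other settings with adjusted p up to 0.160. The same array was low at LOC9266513 (621, 26.8 and 648 in WT roots against 5.97 to 36.9), named after its values were seen. Of the 17 members at which WT root replicate 2 read low, 10 were called lower in both mutant roots once it was left out and 0 with it. These 17 were picked because that array read low. Leaving it out was bound to raise their WT mean and narrow the WT spread, so these counts are a description and no test.

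Members higher in mutant roots than in WT roots, against their direction in shoots, were led by LOC4324057. It read 423, 459 and 575 in WT shoots, 166, 233 and 239 in gi shoots and 223, 143 and 190 in pho2 shoots. In WT roots it gave only 84.8, 88.4 and 103, and in mutant roots 1218, 1167 and 1262 (gi) and 1058, 1008 and 1096 (pho2). The root differences were 3.51 (SE 0.09, adjusted p = 1.87e-08) and 3.31 (SE 0.09, adjusted p = 3.42e-08), called in all 15 other settings, with the groups far apart and both mutants alike. Os.8642.4.S1_x_at, which maps to several genes, gave 460, 352 and 649 in WT roots, 1075, 1384 and 1225 in gi roots and 1180, 1366 and 1536 in pho2 roots (1.34, adjusted p = 0.00675 and 1.49, adjusted p = 0.00131). LOC4336012 was higher by 0.38 (SE 0.07, adjusted p = 0.0189) in gi and 0.84 (SE 0.07, adjusted p = 9.31e-05) in pho2 roots, and the gi call was lost in 5 of 15 other settings. LOC4344909 was higher by 0.95 (adjusted p = 0.0361) and 1.46 (adjusted p = 0.00154) at Os.27297.3.A1_a_at, where the gi call was lost in 6 of 15 other settings. Its other members, Os.27297.1.A1_s_at and Os.27297.2.S1_a_at, were not called in gi roots (0.80, adjusted p = 0.0588 and 0.59, adjusted p = 0.0874). Both were called higher in pho2 roots (1.44 and 1.45).

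Of the 19 members higher in pho2 than in gi roots, several were called against WT in pho2 roots and not in gi roots. Os.49059.1.A1_at read 504, 384 and 577 in WT roots, 395, 349 and 378 in gi roots and 1056, 993 and 1042 in pho2 roots, a difference between mutants of 1.43 (SE 0.13, adjusted p = 0.000453). LOC4324330 was reached by 2 members. At Os.27169.1.S1_s_at it read 6641, 6496 and 7908 in WT roots, 6351, 7892 and 7549 in gi roots and 13483, 12721 and 11676 in pho2 roots. The pho2 arrays were all above the other 6, and pho2 exceeded gi by 0.80 (SE 0.10, adjusted p = 0.0021) there and by 1.02 (SE 0.15, adjusted p = 0.00451) at the other probe set. Os.27098.2.A1_at rose from 212, 257 and 217 in WT roots to 482, 523 and 566 in pho2 roots (1.14, adjusted p = 0.000507), while gi roots gave 254, 316 and 280 (0.29, adjusted p = 0.273). The opposite held for LOC4324194, which gave 894, 993 and 650 in WT roots, 660, 451 and 525 in gi roots and 256, 188 and 246 in pho2 roots. It was lower in pho2 than in WT by -1.80 (SE 0.19, adjusted p = 0.00046) and lower than in gi by -1.18 (SE 0.19, adjusted p = 0.0061). LOC9268371, the brightest member in WT shoots, was higher in pho2 roots (6467, 4963 and 7431) than in WT roots (2951, 2843 and 4521), by 0.88 (SE 0.20, adjusted p = 0.0154), and the call was lost in 3 of 15 other settings.

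Several members share a gene or lie side by side. Of the 32 member genes with more than 1 probe set, 10 had at least 2 members, and of the 41 other probe sets of these genes 27 were lower in both mutants, 12 of them on all 6 mutant shoot arrays. These others include 17 with a WT shoot mean under 100. KIN14K and Hpt5 are adjacent genes on chromosome 5, and their members bear the same cluster number, Os.18241, so they may not be independent readings. LOC4324396 and LOC4324397 are adjacent on chromosome 1. The first read 2661, 2578 and 2561 in WT shoots, 966, 1075 and 1223 in gi shoots and 1298, 1088 and 1267 in pho2 shoots, and the second 924, 941 and 850, then 262, 472 and 643, then 654, 315 and 331. LOC9272115 lies 3 genes from GATA20 on chromosome 6, with shoot differences of -1.09 and -1.44 at its member Os.46941.1.S1_s_at. Its dimmer probe sets Os.28181.1.A1_at and Os.53098.1.S1_at differed by -1.25 and -0.85 in gi and by -0.42 and -0.24 in pho2. LOC4344914 lies 4 genes from LOC4344909 on chromosome 8 and was lower in gi (123, 117 and 221) than in pho2 shoots (741, 259 and 785), from 2393, 2213 and 2137 in WT. The 97 member genes were spread over all 12 chromosomes, from 2 of the 962 genes on chromosome 9 that are reached by a probe set of 1 gene (0.208%) to 21 of 2649 on chromosome 1 (0.793%). Chromosome 3 held 5 of 2456 (0.204%) and chromosome 12 held 8 of 908 (0.881%), and all chromosomes together 97 of 17903 (0.542%).

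Marker readings of the shoot samples also differed with genotype. The summed signal of 12 root marker genes was 28441 to 30339 in WT shoots, 18538 to 22752 in gi shoots and 18957 to 22869 in pho2 shoots, most of it from the aquaporin TIP2;2 (means of 23743, 18592 and 18043). TIP2;2 averaged 15488 in WT roots, less than in WT shoots, so it did not mark root in these data. The sum is therefore no reading of root tissue in the shoot samples. Only 5 of the 12 reached a WT shoot mean of 100. NAAT1, an aminotransferase of iron chelator synthesis, averaged 2386 in WT, 156 in gi and 1226 in pho2 shoots, and the silicon transporter Lsi1 2165, 1581 and 889. NAAT1 too was lower in WT roots (1278) than in WT shoots. The iron transporter IRT1 averaged 328, 168 and 157, and the ammonium transporter AMT1-2 149, 192 and 80.2. Among the dim ones TIP2 averaged 41.5, 34.6 and 225 and Lsi2 2.24, 9.83 and 5.63. The sum of 12 shoot marker genes was 286675 to 342149 in WT, 273418 to 332173 in gi and 211167 to 264335 in pho2 shoots. Genes of dividing cells summed to 108879 to 112936, 106946 to 115112 and 96114 to 99666. None of the root or shoot markers is a member, and the part of these sums in the members' values was not tested.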

How the data were processed

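Total RNA of 18 rice samples was hybridised to Affymetrix rice arrays, per the labels' protocols. The authors deposited linear intensity, 1 value per probe set and array, made with MAS5 per the submitters' processing notes (version not given in the sources used here). Detection calls were not used here. The 123 Affymetrix controls of 57381 probe sets were left out. Groups and replicate numbers came from sample titles, and 0 pairs of columns were identical. The deposited intensity was analysed as log2(value + 16), which understates changes of dim probe sets. One limma fit (version 3.58.1, R 4.3.3, eBayes with trend) took the 9 root arrays, with probe sets under the 40th percentile left out. Tests were two-sided, with Benjamini-Hochberg adjustment over all probe sets tested. This is the limma adjusted p of the text. The fit was tested on simulated data. The number of arrays limits the precision.

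Genes come from the platform annotation and a RefSeq gene table, and lists were filled from gene names. The members, lists and tests were chosen with earlier results of these data known. Named by rule were all members with a gene name, the 5 lowest in shoot, the 5 brightest in WT shoot, up to 5 called in each direction of each root comparison by smallest p, the 3 highest and 3 lowest in WT root, the 3 nearest the limit on each side, neighbouring or same-gene members, and GI. Others are said to be chosen after their values were seen. Alternatives changed the pseudocount (1 or 64), scaling, filter, arrays fitted, array weights and a replicate block. Replicate numbers do not pair the samples: for same-numbered arrays the correlation of deviations from group means ran from -0.11 to 0.11 (root) and from -0.06 to 0.03 (shoot). No sequences were used here, so a planned search of promoters for motifs was not run.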

Additional observations from a re-analysis of the deposited data

Results flagged for a closer look

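Among members named by rule, other than as neighbouring or same-gene members, 8 probe sets differed from WT in opposite directions in the 2 tissues of a mutant. They read lower than WT on every shoot array and higher than WT on every root array. Their root group means were at least 2-fold apart on the log2(signal + 16) scale. The shoot direction was set by the rule for every member, and several of the 8 were named for their root call. The remaining members were not screened, and Os.27297.1.A1_s_at also read this way, with a pho2 root difference of 1.44. The difference between tissues was not tested. Of the 8, LOC4324057 read this way in both mutants, with root differences of 3.51 in gi and 3.31 in pho2, as did Os.8642.4.S1_x_at with 1.34 and 1.49. In pho2 alone the root differences were 1.17 for LOL4, 1.46 and 1.45 for the LOC4344909 probe sets Os.27297.3.A1_a_at and Os.27297.2.S1_a_at, 1.14 for Os.27098.2.A1_at, 1.07 for Os.49059.1.A1_at and 1.13 for the LOC4324330 probe set Os.56048.1.S1_s_at.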

How the results depend on the processing

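The rule kept 143 to 283 probe sets under the other pseudocounts, scalings and minimums and with 1 shoot array left out (193 to 243 for the last), and 126 members were chosen under each of them. Levelling on hybridization controls gave 97 and on poly-A controls 66. With 1 array left out, members called numbered 12 to 32 in gi root (19 with all arrays), 44 to 56 in pho2 root (57) and 15 to 19 between the mutants (21). The lowest gi root counts were 12 without WT root replicate 1 and 13 without gi root replicate 2, and the highest was 32 without WT root replicate 2. Other alternatives gave 17 to 26, 51 to 62 and 16 to 22. Calls over all probe sets ranged from 311 to 1034 in gi root (794), from 3418 to 5825 in pho2 root (5453) and from 1079 to 2726 between the mutants (2609). Median centring changed the gi root split of members from 14 lower and 5 higher to 18 and 3, and the split of all calls between the mutants from 1257 lower and 1352 higher to 487 and 928. With the replicate numbers as a block, 22, 59 and 21 members were called. The numbers do not pair the samples, so this block is not part of the results. Of 68 named root differences, 58 kept call and direction under each alternative or gained a call, and 2 that were not called changed sign: with 1 array left out, BURP2 in pho2 root ranged from -1.68 to 0.078 (without pho2 root replicate 1) and LOC4324873 from -1.09 to 0.026 (without pho2 root replicate 3). Apart from the arrays left out, the cause was not tested.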
